A study of Mus musculus with 9 samples.

Results

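The C/EBP family was represented here by 5 genes, Cebpa, Cebpb, Cebpd, Cebpg and Ddit3, out of 16535 genes that could be named, and they were read by 9 of the 41174 distinct probes of the array. The probes were found through the RefSeq accession that the scanner output gives for each probe, with 2 probes for Cebpa, 2 for Cebpb, 3 for Cebpg and 1 each for Cebpd and Ddit3. Cebpe, another C/EBP gene, had no probe matched in this way and was not read. All 9 probes were well above background on all 9 arrays, none was saturated, and all passed the filter on dim probes. FDCPmix cells are a mouse multipotent hematopoietic line that self-renews in IL-3, and every group was made from them. Control cells received empty lentivirus (empty vector, EV), Gata2 KD cells received virus carrying an shRNA against Gata2, and Pu.1 KD cells received virus carrying an shRNA against Pu.1, the common name of Spi1. In all 3 groups viable GFP+ cells, which had taken up virus, were sorted 5 days after transduction, and their RNA was read on Agilent arrays with a single dye, 3 arrays per group. The study asked how GATA2 and PU.1 act on each other and on their programs in these progenitors. All groups come from a single cell line, and the labels speak of triplicate samples transduced with virus without saying whether these were separate cultures, so the p-values measure the spread between these samples, which may be technical.

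CCAAT/enhancer-binding proteins are basic leucine zipper (bZIP) transcription factors that bind DNA as dimers with each other or with related bZIP proteins. C/EBPα takes progenitors into the granulocyte and monocyte lineages, C/EBPβ serves macrophages and demand-driven granulocyte production, and C/EBPδ is an acute-phase factor also found in maturing granulocytes. C/EBPγ lacks a classical activation domain and acts mainly as a dimer partner, while CHOP, the product of Ddit3, is a stress-induced member that binds other C/EBP proteins and keeps them from their usual sites.

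RefSeq (assembly GRCm38.p6) gave upstream sequence for Cebpa, Cebpb, Cebpg and Ddit3. The 250 bases before the transcription start are shown for Cebpa and Cebpb, whose levels ran in parallel over the groups, and for Ddit3, which ran opposite. Cebpd also ran in parallel with Cebpa and Cebpb, but no upstream sequence was available for it. Capitals mark every match, on either strand, to 7 short motifs chosen after the expression values were known. These were the GATA site AGATAA, the PU.1 (ETS) site GGAAGT, the C/EBP site TTGCNNAA, the C/EBP-ATF composite site TGATGNAA, the cAMP response core TGACG, the TATA box TATAAA and the CCAAT box CCAAT. The Cebpa window lies at chr7:35119043-35119292 on the plus strand, the Cebpb window at chr2:167688665-167688914 on the plus strand and the Ddit3 window at chr10:127290543-127290792 on the plus strand.
Cebpa: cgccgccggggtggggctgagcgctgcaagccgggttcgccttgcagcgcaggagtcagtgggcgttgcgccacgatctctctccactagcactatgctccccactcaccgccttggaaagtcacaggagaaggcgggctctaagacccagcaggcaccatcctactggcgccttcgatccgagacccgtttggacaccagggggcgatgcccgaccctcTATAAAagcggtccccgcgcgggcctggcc
Cebpb: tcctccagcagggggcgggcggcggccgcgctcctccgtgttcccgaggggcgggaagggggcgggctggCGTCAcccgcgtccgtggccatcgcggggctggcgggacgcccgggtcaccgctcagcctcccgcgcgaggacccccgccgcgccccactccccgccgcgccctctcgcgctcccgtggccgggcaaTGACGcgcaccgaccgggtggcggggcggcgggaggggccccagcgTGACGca
Ddit3: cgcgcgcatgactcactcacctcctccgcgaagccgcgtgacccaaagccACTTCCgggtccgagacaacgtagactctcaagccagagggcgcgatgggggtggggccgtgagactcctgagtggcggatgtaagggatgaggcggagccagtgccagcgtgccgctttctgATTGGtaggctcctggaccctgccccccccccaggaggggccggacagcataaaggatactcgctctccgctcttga
The Cebpa window held a TATA box 30 bases before the start, a motif found in 12.4% of the 32851 windows of the same length. The Cebpb window held TGACG at 53 and 7 bases before the start and, on the opposite strand, at 180 bases, and 17.8% of all windows held this motif. The Ddit3 window held the PU.1 motif GGAAGT at 200 bases and a CCAAT box at 77 bases, both on the opposite strand, where 19.7% and 33.8% of all windows held these motifs. The Cebpg window held 2 CCAAT boxes on the opposite strand, at 89 and 28 bases. The GATA motif, the C/EBP motif and the composite motif, present in 9.99%, 9.56% and 3.45% of all windows, matched none of these 4 windows, which says only that these letters do not occur in them. No match overlapped another.

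The arrays had 80.4% to 89.6% of their spots well above background and an upper-quartile intensity of 438.7 to 587.4, and 36585 probes were tested. Each array lay on 1 of 3 slides, and each slide carried 1 array of each group. Gata2 itself changed in Gata2 KD by a log2 value of -1.61 against EV (SE 0.226, adjusted p = 0.00414), and Spi1 changed in Pu.1 KD by -1.73 (SE 0.155, adjusted p = 0.00178), so each label was borne out by its target. In Gata2 KD, 57% of the called probes were higher than in EV, a share of 69.7% when arrays were scaled to their median. All 10 progenitor markers fixed for the line passed the filter on dim probes, and Kit and Cd34, named here after their values were seen, were well above background on all 9 arrays.

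Cebpa, Cebpb and Cebpd were highest in Gata2 KD and lowest in Pu.1 KD, Ddit3 ran the other way, and the brightest probe of Cebpg showed no separation between groups. A level is given here as the log2 processed intensity of a probe minus the 75th percentile of its array, so that 0 stands for a probe as bright as that percentile, and levels are compared only within a probe. The brightest probe of each gene was used unless another is named. A change was called when its adjusted p in limma was below 0.05. Against EV, 2 of the 5 genes were called higher in Gata2 KD, where 4.21% of the 15808 named genes tested were called higher. No member was called lower there, where 2.95% of genes were. At an unadjusted p under 0.05 in limma, Cebpa was also higher and Ddit3 lower in Gata2 KD. In Pu.1 KD 1 of the 5 was called lower and none higher, against backgrounds of 2.16% and 1.45%. At the unadjusted threshold, Cebpb and Cebpd were also lower and Ddit3 was higher in Pu.1 KD. The share of all genes at that unadjusted threshold was not counted. Set directly against each other, Gata2 KD and Pu.1 KD differed in 4 of the 5 genes, of which 3 were higher in Gata2 KD, against 6.77% of all genes, and 1 was lower, against 5.6%. The groups did not overlap for 4 of the 5 genes in each of the 3 comparisons, a pattern shown by 23.1% of genes for Gata2 KD and EV, 20.6% for Pu.1 KD and EV and 30.1% for the knockdowns against each other. The comparisons with EV share their EV arrays and are therefore given side by side.

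**Figure D1:**
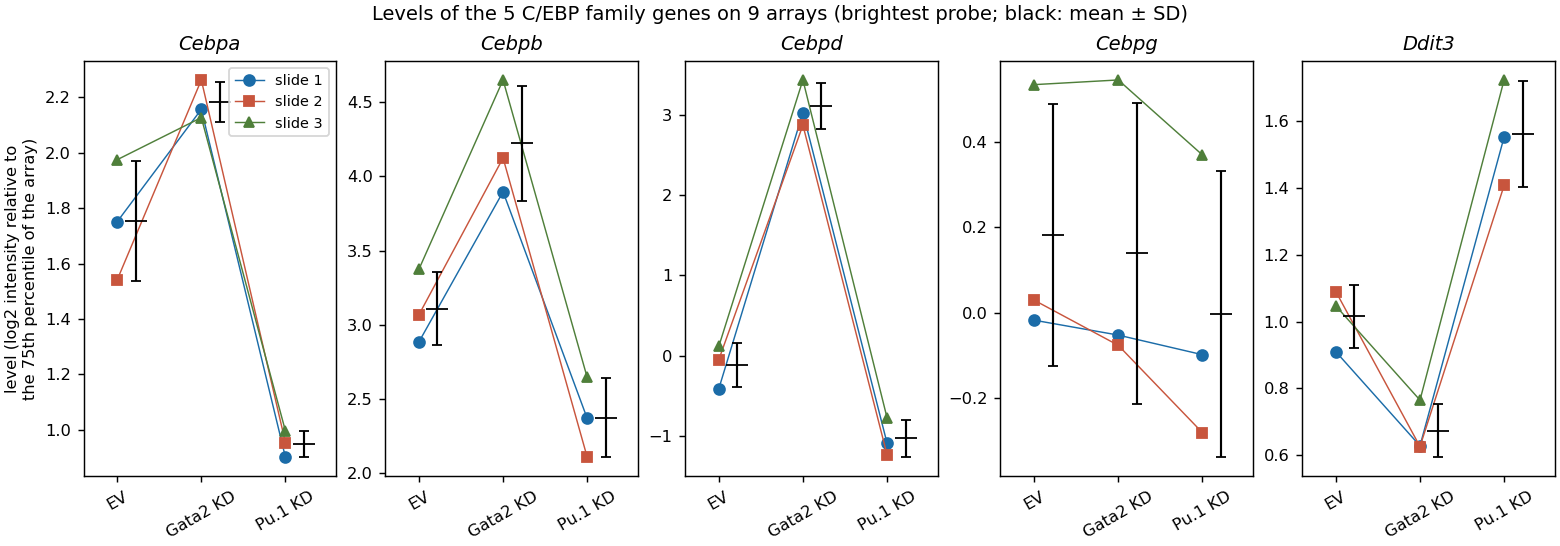
Levels of the brightest probe of each gene (log2 processed intensity minus that of the array's 75th percentile) on the 9 arrays, by group, with lines joining the arrays of one slide and black bars for the mean ± SD of 3 arrays. Cebpa, Cebpb and Cebpd peak in Gata2 KD on each slide, from a mean of 2.18, 4.22 and 3.11 down to 0.949, 2.37 and -1.03 in Pu.1 KD, Ddit3 is lowest in Gata2 KD, and the Cebpg values follow slide 3 more than the group.

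Cebpd, the acute-phase member, made the largest move of the members read here. On EV arrays 1, 2 and 3 it read -0.41, 0.12 and -0.048, on the Gata2 KD arrays 3.43, 2.87 and 3.03, and on the Pu.1 KD arrays -1.23, -0.77 and -1.08. All Gata2 KD arrays were far above the EV arrays and all Pu.1 KD arrays were below them, with no overlap between any of the groups. The level rose 9.33-fold in Gata2 KD over EV (log2 change 3.22, SE 0.215, adjusted p = 7.4e-05), and 0.481% of all genes tested had a larger change in size. Within slides the difference lay between 2.92 and 3.44, and it was called under all 21 alternative settings. In Pu.1 KD Cebpd was lower than in EV by a log2 change of -0.91 (SE 0.215), which did not pass the threshold (adjusted p = 0.073). With slide as a block, which takes out differences between slides, the same change had an adjusted p of 0.0165, and within slides it ranged from -1.18 to -0.67. Gata2 KD exceeded Pu.1 KD 17.6-fold (log2 difference 4.14, SE 0.215, adjusted p = 8.9e-06).

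Cebpb was the next to move. Its levels were 2.88, 3.37 and 3.07 on the EV arrays, 4.65, 4.12 and 3.90 on the Gata2 KD arrays and 2.11, 2.65 and 2.37 on the Pu.1 KD arrays. Every Gata2 KD array lay above every EV array and every Pu.1 KD array below. Cebpb rose 2.17-fold in Gata2 KD (log2 change 1.11, SE 0.24, adjusted p = 0.034), by 1.01 to 1.27 within slides. This call rested on the set of arrays used. It was lost without EV array 1 (adjusted p = 0.112) or 3 (0.0894), without Gata2 KD array 1 (0.0907) or 2 (0.107), and without Pu.1 KD array 1 (0.0511) or 3 (0.0679), although the change stayed between 0.90 and 1.28, and with arrays scaled to their median the adjusted p was 0.135. With slide as a block it was 0.00467. The second Cebpb probe read 0.089, 0.068 and 0.46 in EV, 1.34, 1.65 and 1.40 in Gata2 KD and -0.029, -0.26 and -0.53 in Pu.1 KD, the same order of groups, and its rise in Gata2 KD was called (log2 change 1.25, SE 0.185, adjusted p = 0.00549). In Pu.1 KD the first probe was lower than in EV by -0.73 (SE 0.24, adjusted p = 0.205) and the second by -0.48 (SE 0.185, adjusted p = 0.316), neither called. With slide as a block the first reached an adjusted p of 0.0331. Between the knockdowns both probes differed, by 1.85 (SE 0.24, adjusted p = 0.00157) and 1.73 (SE 0.185, adjusted p = 0.000531), or 3.6-fold and 3.33-fold.

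Cebpa, the lineage-entry member, was the gene among the members read here that was called lower after Pu.1 knockdown. It read 1.75, 1.98 and 1.54 in EV, 2.13, 2.26 and 2.16 in Gata2 KD and 0.953, 0.995 and 0.900 in Pu.1 KD. The Pu.1 KD arrays formed a tight cluster under all others, and the Gata2 KD arrays lay above EV by a margin of 0.15 on slide 3 and 0.72 on slide 2. Pu.1 KD was lower than EV by a log2 change of -0.81 (1.75-fold, SE 0.144, adjusted p = 0.0257), and within slides by -0.98 to -0.59. The call was lost without EV array 1 (adjusted p = 0.0813) or 2 (0.0846), Gata2 KD array 2 (0.0601) or 3 (0.0573), or any of the Pu.1 KD arrays (0.112, 0.0925 and 0.109 for arrays 1 to 3), while the change stayed between -0.91 and -0.70. Scaled to the median it had an adjusted p of 0.257. The second probe was dimmer and moved less, by -0.64 (SE 0.218, adjusted p = 0.228), with levels of -0.72, -0.94 and -0.96 in EV, -0.97, -0.51 and -0.34 in Gata2 KD and -1.41, -1.86 and -1.27 in Pu.1 KD. Its Pu.1 KD arrays were also the lowest, but its Gata2 KD and EV arrays overlapped. In Gata2 KD the first probe was higher than EV by 0.43 (SE 0.144, adjusted p = 0.181) and the second by 0.27 (SE 0.218, adjusted p = 0.77), neither called. Between the knockdowns the difference of the first was 1.23 (2.35-fold, SE 0.144, adjusted p = 0.000885) and of the second 0.91 (1.88-fold, SE 0.218, adjusted p = 0.0349).

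Ddit3, the stress-induced inhibitor of the family, had the reverse order of groups. Its levels were 0.910, 1.05 and 1.09 in EV, 0.765, 0.626 and 0.628 in Gata2 KD and 1.41, 1.72 and 1.55 in Pu.1 KD. All Gata2 KD arrays lay below the EV arrays and all Pu.1 KD arrays above, without overlap. Neither change against EV was called, at -0.34 in Gata2 KD (SE 0.136, adjusted p = 0.281) and 0.55 in Pu.1 KD (SE 0.136, adjusted p = 0.0896). With slide as a block the Pu.1 KD change was called (adjusted p = 0.0412) and the Gata2 KD change was not (adjusted p = 0.12). The difference between the knockdowns was called, at -0.89 (1.85-fold, SE 0.136, adjusted p = 0.00384). It was called under 20 of 21 alternative settings, the exception being scaling to the median (adjusted p = 0.0515), and within slides it ranged from -0.96 to -0.78.

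Cebpg, the dimer partner, showed no called change in any comparison. It read -0.018, 0.535 and 0.029 in EV, 0.546, -0.077 and -0.053 in Gata2 KD and -0.282, 0.370 and -0.099 in Pu.1 KD. In each group the array on slide 3 was the highest, and the groups overlapped throughout on this probe. The change was -0.043 in Gata2 KD (95% confidence interval -0.63 to 0.54, adjusted p = 0.991), which became 0.001 with arrays scaled to their median, and -0.19 in Pu.1 KD (interval -0.77 to 0.40, adjusted p = 0.954). The second probe gave -0.16 (SE 0.184) and -0.26 (SE 0.184) and followed the first over the 9 arrays (r = 0.87). The third probe, the dimmest, gave -0.10 (SE 0.147) and 0.19 (SE 0.147), and it ran against the first (r = -0.714), so the probes of this gene disagreed in sign in Pu.1 KD. With slide as a block no Cebpg comparison was called either, the lowest adjusted p being 0.353 against EV.

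**Figure D2:**
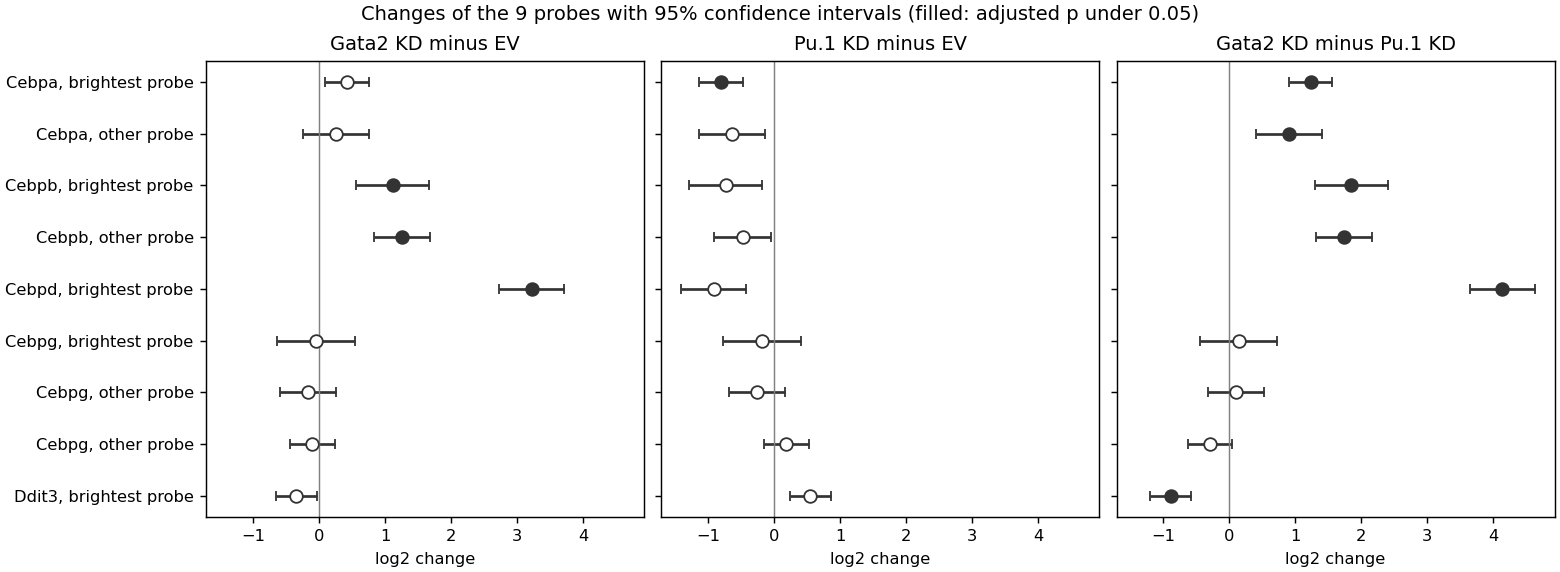
Log2 changes of all 9 probes with 95% confidence intervals from limma (3 arrays per group), in the 3 comparisons, with filled points for an adjusted p under 0.05. The Cebpd point lies at 3.22 in Gata2 KD minus EV and at 4.14 between the knockdowns, where both Cebpa probes, both Cebpb probes and Ddit3 are also filled, and the 3 Cebpg probes lie near 0 in all panels.

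Over the 9 arrays the levels of Cebpb and Cebpd ran together most closely (r = 0.959), followed by Cebpa with Cebpb (r = 0.904) and Cebpa with Cebpd (r = 0.859). Ddit3 ran against these genes, at r = -0.951 with Cebpa, -0.828 with Cebpb and -0.842 with Cebpd. These are descriptions over 9 arrays that share 3 groups and 3 slides. With slide means removed the values were 0.974, 0.919 and 0.858 for the same pairs in the same order and -0.988, -0.931 and -0.88 with Ddit3. Cebpg had r between -0.0331 and 0.456 with the others, and between -0.64 and 0.672 with slide means removed.

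The genes most like each member, among 14465 other genes well above background on all arrays, were taken by Pearson r over the 9 arrays. For Cebpa these were Ncf1 (r = 0.992), a subunit of the phagocyte oxidase, Pdxk (0.988), pyridoxal kinase, and Hk3 (0.986), a hexokinase of myeloid cells, and the same genes led with slide means removed. For Cebpb they were Tet2 (0.996), a DNA demethylase, Fes (0.993), a myeloid tyrosine kinase, and Acsl1 (0.992), an acyl-CoA synthetase, and with slide means removed Oas1f (0.999), Ntpcr (0.998) and Cd300lf (0.997). For Cebpd they were Gfi1 (0.998), a repressor needed for granulocytes, Lyz1 (0.997), a lysozyme, and Acot1 (0.997), an acyl-CoA thioesterase, and with slide means removed Acot1, C130050O18Rik and Rbms1, all at 0.999 or above. For Ddit3 they were Ropn1l (0.992), Gem (0.991), a small GTPase, and Ces2g (0.991), a carboxylesterase, and with slide means removed Gem (0.996), Mfsd4a (0.995) and Pfn2 (0.995). For Cebpg they were Aurkb (0.985), a mitotic kinase, Cox7c (0.983), a respiratory chain subunit, and Taf13 (0.982), a transcription factor subunit, and with slide means removed Cab39l (0.994), Iftap (0.990) and Ripk3 (0.990). All of these coefficients rest on 9 arrays that share 3 groups and 3 slides.

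The factors that act on C/EBP genes or proteins formed a list of 19, all tested. In Gata2 KD 5 were called higher and 3 lower, with a median log2 change of 0.034, where the median of all genes was -0.091. The shares of all genes called were 4.21% higher and 2.95% lower. Irf8, which drives monocyte fate, rose by 4.38 (SE 0.13, adjusted p = 3.47e-06), Gfi1 by 2.06 (SE 0.19, adjusted p = 0.000424) and Id2, an inhibitor of E proteins, by 1.76 (SE 0.16, adjusted p = 0.00039). Spi1, whose product PU.1 binds myeloid genes together with C/EBP proteins, rose by 1.39 (SE 0.155, adjusted p = 0.0012), and Trib1, whose product sends C/EBPα for degradation, rose by 1.44 (SE 0.243, adjusted p = 0.0108). The 3 that fell were Gata2 and, named after their values were seen, Gata1 (log2 change -1.08, adjusted p = 0.0128) and its cofactor Zfpm1 (-0.86, adjusted p = 0.00611). Trib2, the related pseudokinase, changed by 0.43 (adjusted p = 0.486) and Runx1, which acts on the Cebpa locus, by -0.40 (adjusted p = 0.466).

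In Pu.1 KD 1 of these 19 regulators was called higher and 3 lower, with a median log2 change of -0.36, against -0.043 for all genes. The shares of all genes called were 1.45% higher and 2.16% lower. The fallen genes were Spi1 by -1.73, Klf4, a factor of monocytes, by -1.32 (SE 0.271, adjusted p = 0.0456) and Runx1 by -1.04 (SE 0.203, adjusted p = 0.037). Id2 rose here too, by 1.13 (SE 0.16, adjusted p = 0.0106). Gfi1 changed by -0.55 (adjusted p = 0.241), Trib1 by -0.47 (adjusted p = 0.539), Trib2 by 0.46 (adjusted p = 0.502) and Gata2 by -0.15 (adjusted p = 0.964), and none was called.

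A list of bZIP partners of C/EBP proteins and other C/EBP genes, 19 of which were tested, is next. Cebpe was on it but had no matched probe. Against EV, 1 was called higher in Gata2 KD (Batf3, an AP-1 factor of dendritic cells, by 1.82, SE 0.186, adjusted p = 0.00073), with a median of -0.093 against -0.091 for all genes. In Pu.1 KD 1 was called lower, Fos, an immediate-early AP-1 factor, by -1.55 (SE 0.269, adjusted p = 0.0228), with a median of -0.033 against -0.043. Each of these is a single call, where 4.21% and 2.16% of all genes were called in the same direction. Between the knockdowns, where 6.77% of all genes were called higher and 5.6% lower, 2 of the 19 were higher in Gata2 KD, Batf3 (1.77, adjusted p = 0.000495) and Nfil3 (0.88, adjusted p = 0.00676), and 2 were lower, Atf5 (-0.73, adjusted p = 0.0334) and Jund (-0.64, adjusted p = 0.0199), of which Nfil3, Atf5 and Jund were named after their values were seen. Atf4, which drives Ddit3 in the stress response and dimerizes with C/EBP proteins, gave changes of 0.067 (SE 0.261, adjusted p = 0.986) and -0.001 (SE 0.261, adjusted p = 1).

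Myeloid genes known as C/EBP targets formed a list of 27, all tested. In Gata2 KD 22 were called higher and 1 lower, where 4.21% and 2.95% of all genes were. The median change was 2.71 against -0.091 for all genes. The largest rises were those of Mmp8, a collagenase of neutrophil granules, by 5.04 (SE 0.146, adjusted p = 3.47e-06), Csf1r, the macrophage colony-stimulating factor receptor, by 4.53 (SE 0.201, adjusted p = 1.26e-05), and Lcn2, a siderophore-binding granule protein, by 4.32 (SE 0.157, adjusted p = 7.3e-06). The 1 lower gene, Il6, an inflammatory cytokine named after its value was seen, changed by -2.09 (SE 0.196, adjusted p = 0.000446). In Pu.1 KD 14 of the 27 were called lower and 0 higher by limma, and the median change was -0.93 against -0.043. The shares of all genes called there were 2.16% lower and 1.45% higher. At an unadjusted p under 0.05, 21 were lower and 1 higher, and the share of all genes at that threshold was not counted. The largest falls were those of Mpo, the myeloperoxidase of primary granules, by -2.81 (SE 0.148, adjusted p = 0.000213), and of S100a9 and S100a8, which form calprotectin, by -2.29 (SE 0.185, adjusted p = 0.00137) and -1.80 (SE 0.242, adjusted p = 0.00871). The count of 14 was 9 without Pu.1 KD array 1 or without array 3. It was 8 with arrays scaled to their median or with only the groups compared, and 7 with the replicate block. Between the knockdowns 23 of the 27 were called higher in Gata2 KD and 1, Il6, lower, where 6.77% and 5.6% of all genes were. The 23 included Saa3, named after its value was seen (SE 0.709, adjusted p = 0.0381). Saa3 was well above background on only 4 of the 9 arrays, and the count was 22 with the filter on all 9 arrays. The Il6 call was lost with median scaling and with the replicate block. It was also lost without Gata2 KD array 2 or 3 or Pu.1 KD array 2 or 3. The directions of this list were known from earlier results of these data when it was drawn up.

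**Figure D3:**
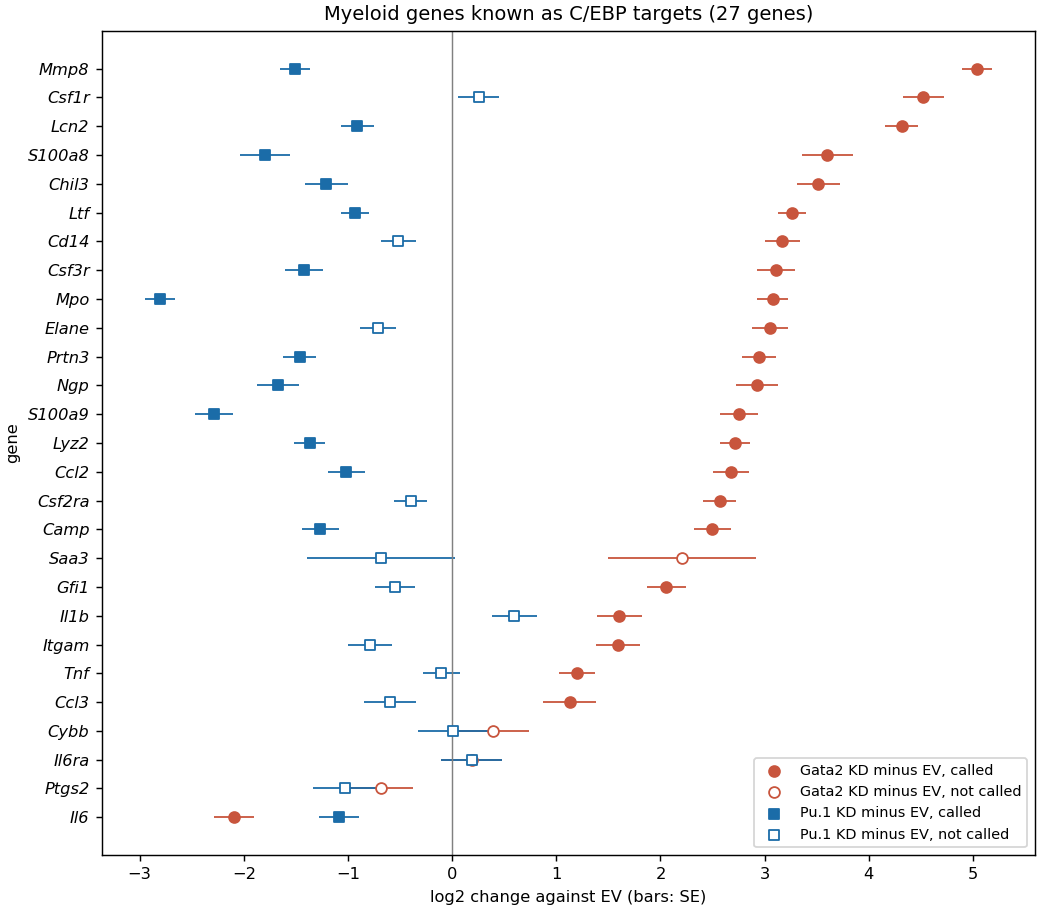
Log2 change against EV of 27 myeloid genes known as C/EBP targets in Gata2 KD (circles) and Pu.1 KD (squares), with bars for the SE from limma and filled points for an adjusted p under 0.05. The Gata2 KD points reach 5.04 (Mmp8) and the Pu.1 KD points reach -2.81 (Mpo), with Il6 called lower in both. Ptgs2, named after its values were seen, was also lower in both but not called in either.

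The target list is also a list of cell types. Of 11 neutrophil markers 10 are in it, and of 8 tested monocyte and macrophage markers 2 are. For the counts of markers called, the shares of all genes were 4.21% higher and 2.95% lower in Gata2 KD. In Pu.1 KD they were 1.45% and 2.16%. All 11 neutrophil markers were called higher in Gata2 KD and 9 were called lower in Pu.1 KD, and their summed level (log2 of their intensities added up, on the scale of the levels) was 7.91 to 8.08 in EV, 10.15 to 10.41 in Gata2 KD and 6.73 to 6.96 in Pu.1 KD. Of the monocyte and macrophage markers 7 of 8 were called higher in Gata2 KD and 2 of 8 lower in Pu.1 KD, with a summed level of 2.15 to 2.34 in EV, 5.55 to 5.70 in Gata2 KD and 1.31 to 1.57 in Pu.1 KD. Of 10 mast cell and basophil markers 7 were called lower in Gata2 KD, with a summed level of 6.98 to 7.18 in EV, 4.64 to 4.75 in Gata2 KD and 6.50 to 6.62 in Pu.1 KD. In Pu.1 KD 3 of these 10 were called lower and 1 higher. Eosinophil markers read 1.87 to 2.33 in EV, 3.46 to 3.85 in Gata2 KD and 0.467 to 0.636 in Pu.1 KD, erythroid markers 3.29 to 3.41, 2.93 to 3.52 and 3.99 to 4.19, and megakaryocyte markers 5.87 to 6.26, 5.95 to 6.53 and 7.21 to 7.43. Of 6 eosinophil markers 2 were called higher in Gata2 KD and 4 lower in Pu.1 KD. Of 7 erythroid markers 2 were called lower in Gata2 KD and 2 higher in Pu.1 KD. Of 6 megakaryocyte markers 1 was called higher in Gata2 KD and 3 in Pu.1 KD. Of 10 progenitor markers 2 were called higher and 2 lower in Gata2 KD, and 1 higher and 1 lower in Pu.1 KD. Among the markers tested, those dim on some arrays included the macrophage marker Mrc1, well above background on 3 arrays, and the progenitor marker Hoxa9, on 7, both named after their values were seen. The summed levels of the neutrophil, monocyte and eosinophil lists had the order of groups of Cebpa, Cebpb and Cebpd, but single markers did not all follow it. In Pu.1 KD the monocyte markers Csf1r, Cx3cr1, Ctss and Trem2 changed by 0.25, 0.54, 0.093 and 0.115, none called. Adgre1 and Fcgr1 were called lower, Cd14 and Mrc1 were lower but not called, and the median of the list was -0.213. These markers, apart from Csf1r, were named after their values were seen. The part of these cell types in the member changes was not tested. In these bulk samples fewer cells of a type and less RNA per cell cannot be told apart.

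The genes of the integrated stress and unfolded protein responses around Ddit3, a list of 34 that were all tested, are the setting in which CHOP is usually studied. In Gata2 KD 0 were called by limma, with 2 higher and 4 lower at an unadjusted p under 0.05. Blocking on slide gave 1 higher and 2 lower, and with the trended robust fit 3 were called lower. In Gata2 KD the median change was -0.14 against -0.091 for all genes. In Pu.1 KD 1 was called higher, Bcl2l11, the BH3-only death gene also known as Bim, by 1.36 (SE 0.137, adjusted p = 0.00281). The 3 called lower were Nupr1, a stress-induced nuclear protein, by -0.95 (SE 0.139, adjusted p = 0.0116), Sdf2l1, an endoplasmic reticulum chaperone partner, by -0.88 (SE 0.13, adjusted p = 0.0124), and Chac1, a glutathione-degrading enzyme named after its value was seen, by -0.78 (SE 0.126, adjusted p = 0.0172). At an unadjusted p under 0.05, 2 of the 34 were higher and 14 lower in Pu.1 KD. The shares of all genes at that unadjusted threshold were not counted for either knockdown, so these unadjusted counts have no background beside them. After adjustment, 1.45% of all genes were called higher and 2.16% lower in Pu.1 KD, and the median of the list was -0.22 against -0.043. The 3 lower calls became 0 without Pu.1 KD array 1, 1 without array 2 or without array 3, and 6 with slide as a block. They were also 0 with arrays scaled to their median, with the replicate block and with only the groups compared. Between the knockdowns, where Ddit3 was lower in Gata2 KD, 5 of the 34 were called higher and 2 lower in Gata2 KD, beside 6.77% and 5.6% of all genes. The 5 became 2 without Gata2 KD array 1, 2 or 3 or Pu.1 KD array 1. Scaling to the median and the replicate block also gave 2. The 5 became 3 without Pu.1 KD array 2 or with no filter on dim probes, and 1 without Pu.1 KD array 3. The 2 lower calls became 1 without EV array 1, Gata2 KD array 2 or 3, or Pu.1 KD array 2 or 3. They were also 1 with median scaling, with the replicate block and with only the groups compared. The counts were 7 and 3 with slide as a block.

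**Figure D4:**
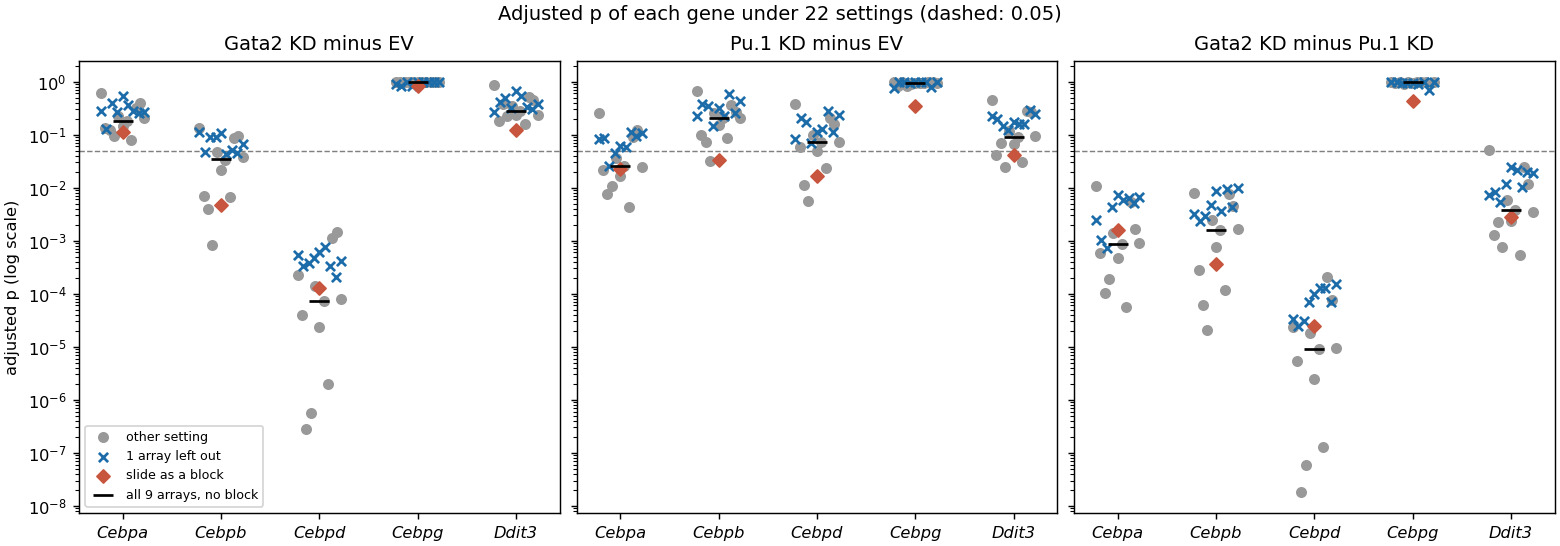
Adjusted p (log axis, dashed line at 0.05) of the brightest probe of each gene in the 3 comparisons, with all 9 arrays and no block (black bar), with slide as a block (diamond), with 1 array left out (crosses) and under other settings (circles). Cebpd in Gata2 KD lies below the line under every setting shown, the calls of Cebpb in Gata2 KD and Cebpa in Pu.1 KD lie on both sides of it, and Cebpg stays above it.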

How the data were processed

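Groups and replicate numbers came from the sample titles. The authors deposited one-color Cy3 intensity values for each array, as output of Agilent Feature Extraction 10.1.1.1 (processed signal, from which background and a spatial trend had been taken within each array, with no scaling between arrays), on an array whose design was annotated to mm8. A table of log2 values, 1 column per array, was deposited too, whose processing is not given in the sources used here, and it was used as an alternative. It correlated with the log2 median signal of its array at 0.9974 or more, so its scale was taken as log2 without background subtraction, while its centring stays unknown (column medians 7.348 to 7.389).

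Control spots were dropped and outlier-flagged spots set to missing. Each probe's log2 processed signals were averaged over its spots, and the 75th percentile over the distinct probes of an array was subtracted. That percentile was first taken over all spots and was changed after the counts of called probes had been seen, and both are reported. Probes that rose well above background on 3 or more of the 9 arrays, with 2 or more values in each group, were tested (36585 of 41174). RefSeq accessions gave names to 23374 probes (16535 genes, 15808 tested), and a gene was represented by its brightest probe. limma 3.58.1 in R 4.3.3 was fitted to all 9 arrays, with p-values adjusted by the Benjamini-Hochberg method over these probes, at a threshold of 0.05, without a replicate block. The slide was read from the scanner's barcode. The fit was tested on simulated data, where estimates of changes were close to those put in but only part of the changed probes were called.

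Genes named in the text were the 5 members, up to 3 called genes of largest change from each list in each comparison against EV, 7 direct regulators of C/EBP genes or proteins, and the 3 genes of highest r with each member, with any others marked as chosen after their values were seen. The members and lists were chosen with earlier results of these data known. The number of arrays limits the precision. Replicate numbers were compared over group deviations: same-numbered arrays correlated at -0.552 to 0.652 over 9 pairs and arrays on 1 slide at -0.0408 to 0.719, so the numbers were not taken as pairs. Alternatives were median and quantile scaling, normexp background correction (offset 50), the deposited log2 values, other filters, slide or replicate as a block, only the groups compared, and leaving out each array.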

Additional observations from a re-analysis of the deposited data

Results flagged for a closer look

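For 4 of the 5 members the changes against EV had opposite signs in Gata2 KD and Pu.1 KD, and the direct comparison of the knockdowns passed the threshold in limma, where 6.77% of all genes were called higher and 5.6% lower. Without a block, none of the 4 was called in both comparisons with EV: Cebpb and Cebpd were called in Gata2 KD only, Cebpa in Pu.1 KD only and Ddit3 in neither. The log2 difference was 1.233 for Cebpa (adjusted p = 0.000885), 1.849 for Cebpb (adjusted p = 0.00157), 4.136 for Cebpd (adjusted p = 8.9e-06) and -0.889 for Ddit3 (adjusted p = 0.00384). In each case the difference had the same sign on all 3 slides. Groups of 3 arrays are too small for a test of single arrays that stand apart.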

How the results depend on the processing

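The differences of Cebpa, Cebpb and Cebpd between the knockdowns and the rise of Cebpd in Gata2 KD kept their sign and stayed called under all 21 alternative settings. The number of members called in Gata2 KD against EV was 1 with arrays scaled to their median, with the replicate block and with only the groups compared, and 1 to 2 with 1 array left out. In Pu.1 KD it was 0 with median scaling, the replicate block and only the groups compared, 2 with quantile normalization, normexp correction or the filter on all 9 arrays, 3 with a trended robust fit, 4 with the deposited log2 values or slide as a block, and 0 to 1 with 1 array left out. The fall of Cebpa in Pu.1 KD was not called at -0.77 (median scaling), -0.81 (replicate block and only the groups compared) and -0.64 (other probe), and it was -0.91 to -0.70 with 1 array left out. The rise of Cebpb in Gata2 KD was not called at 1.16 (median scaling) and 1.11 (replicate block and only the groups compared), and it was 0.90 to 1.28 with 1 array left out. In Pu.1 KD, Cebpb was called at -0.66 (deposited values) and -0.73 (slide as a block), Cebpd at -0.79 (normexp), -0.86 (deposited values) and -0.91 (all-array filter, trended robust fit and slide as a block), and Ddit3 at 0.56 (quantile), 0.61 (deposited values) and 0.55 (trended robust fit and slide as a block). The Ddit3 difference between the knockdowns was not called at -0.88 with median scaling. Cebpg, never called, turned its sign in Gata2 KD at 0.001 (median scaling), ranged from -0.25 to 0.13 there and from -0.062 to 0.33 between the knockdowns with 1 array left out, and its dimmest probe gave 0.19 in Pu.1 KD and -0.29 between the knockdowns. The cause of these shifts was not tested.

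Over all probes, 1902, 986 and 3524 were called in the comparisons of Gata2 KD with EV, of Pu.1 KD with EV and of the knockdowns. With median scaling these were 1203, 377 and 2259. With slide as a block 2886 and 1875 were called against EV, with the replicate block 1172 and 234, and with only the groups compared, where fewer arrays enter, 1114 and 223. For Pu.1 KD the deposited values gave 1785 and the trended robust fit 1575. With 1 array left out the ranges were 1072 to 1700, 281 to 824 and 2206 to 3932. The percentile over all spots, added after the data were seen, gave 1890, 962 and 3517 and the same member counts of 2, 1 and 4. The counts of the target and stress lists under each setting were also added after the data were seen. The same numbers do not pair the arrays, so the replicate block is a check only.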
